A study of Homo sapiens with 34 samples.

Results

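The genes described here are the 50 protein-coding genes whose symbol starts with PSMA, PSMB, PSMC, PSMD, PSME, PSMF or PSMG followed by a number, out of 19974 protein-coding genes on chromosomes 1 to 22 and X. Of the 50, 48 encode subunits, activators, an inhibitor or assembly factors of the proteasome. The other two, PSMC3IP, a cofactor of meiotic recombination, and PSME3IP1, a partner protein of PSME3, meet the symbol rule but are no subunits. A gene extended by 1 kb on each side was called occupied in a library when a called region overlapped it by at least 1 bp.

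The proteasome degrades proteins that carry ubiquitin and also clears oxidised proteins. Its barrel-shaped core is built of outer alpha rings (PSMA genes), which gate the entry, and inner beta rings (PSMB genes), of which PSMB5, PSMB6 and PSMB7 hold the active sites. A regulatory particle of ATPases (PSMC genes) and non-ATPase subunits (PSMD genes) recognises, unfolds and feeds the substrate. Immune, thymic and testis forms replace some core subunits in particular tissues. In human cells the transcription factor NFE2L1 raises proteasome genes together when proteasome activity falls, through antioxidant response elements in their promoters.

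U2OS cells, a human osteosarcoma line, were profiled by CUT&RUN, a method that cuts DNA out of the nucleus wherever an antibody has brought a nuclease to its target. All cells were synchronised by a double thymidine block and released for 3 h, after 72 h with an siRNA. The 3 targets were the ISWI remodelling ATPase SMARCA1, the base excision enzyme OGG1, which cuts oxidised guanine from DNA, and Orc6, which belongs to the origin recognition complex. SMARCA1 and OGG1 were each profiled in 4 groups: siOrc6 cells given 5 mM H2O2 for 30 min (siOrc6 H2O2), non-treated siOrc6 cells (siOrc6 NT), control-siRNA cells given the same H2O2 (siGl3 H2O2) and non-treated control-siRNA cells (siGl3 NT). Orc6 was profiled in the siGl3 H2O2 and siGl3 NT groups only. Each of the 10 groups had n = 2 libraries, 20 in all.

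The 20 lists held 6992 to 132408 regions, with 6992 to 69927 for SMARCA1, 17813 to 132408 for OGG1 and 23375 to 63692 for Orc6. The lists give no read counts, so depth is unknown, and no expression was measured that could check the Orc6 knockdown or the identity of the cells. The labels do not say that replicates came from separate cultures, so p-values measure the spread between these libraries, which may be technical. The lists of all 4 SMARCA1 siOrc6 libraries are marked as resubmitted, so this mark and the siRNA cannot be told apart. No list from the IgG controls was among the 20, so background signal at these genes was not checked.

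Promoters of 44 of the 50 genes could be read from RefSeq (GRCh38.p14). The 6 below show 3 genes occupied in every library (PSMC3, PSMC5, PSMD3), the gene occupied in every H2O2 and no NT library (PSMD6), a gene called for OGG1 (PSMG1) and a gene that no list reached (PSMA8). Each runs 5′ to 3′ over the 250 bases before the transcription start. Capitals mark any match, on either strand, to TGACNNNGC (the core of the antioxidant response element), to the GC box GGGCGG, to the CCAAT box, to the ETS core CCGGAA or to the E-box CACGTG. In PSMG1 the TGACNNNGC match adjoins a GC box that overlaps the next one. PSMC5 has another annotated promoter, not shown, which was also in 20 lists and holds 1 TGACNNNGC match.
PSMC3, chr11:47426440-47426689, strand -: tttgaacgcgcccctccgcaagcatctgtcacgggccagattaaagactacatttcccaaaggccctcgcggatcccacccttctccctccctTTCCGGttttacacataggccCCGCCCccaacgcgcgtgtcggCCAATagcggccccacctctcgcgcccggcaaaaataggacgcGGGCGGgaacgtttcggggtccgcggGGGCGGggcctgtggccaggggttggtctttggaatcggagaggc
PSMC5, chr17:63827181-63827430, strand +: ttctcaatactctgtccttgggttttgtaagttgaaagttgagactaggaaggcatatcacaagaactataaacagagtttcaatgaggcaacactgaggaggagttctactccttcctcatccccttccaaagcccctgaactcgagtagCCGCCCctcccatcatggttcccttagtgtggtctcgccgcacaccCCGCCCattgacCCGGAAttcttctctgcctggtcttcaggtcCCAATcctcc
PSMD3, chr17:39980557-39980806, strand +: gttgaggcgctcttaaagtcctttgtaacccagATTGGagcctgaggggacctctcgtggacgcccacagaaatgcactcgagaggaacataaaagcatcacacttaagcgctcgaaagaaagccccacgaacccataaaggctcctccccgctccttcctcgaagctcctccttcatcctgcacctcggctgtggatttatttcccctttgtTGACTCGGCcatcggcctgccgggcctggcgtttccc
PSMD6, chr3:64023495-64023744, strand -: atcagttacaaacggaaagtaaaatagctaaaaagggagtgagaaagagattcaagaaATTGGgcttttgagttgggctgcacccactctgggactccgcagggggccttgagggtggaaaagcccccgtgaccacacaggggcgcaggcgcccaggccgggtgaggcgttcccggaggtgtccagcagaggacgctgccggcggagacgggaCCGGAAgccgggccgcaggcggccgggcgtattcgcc
PSMG1, chr21:39183452-39183701, strand -: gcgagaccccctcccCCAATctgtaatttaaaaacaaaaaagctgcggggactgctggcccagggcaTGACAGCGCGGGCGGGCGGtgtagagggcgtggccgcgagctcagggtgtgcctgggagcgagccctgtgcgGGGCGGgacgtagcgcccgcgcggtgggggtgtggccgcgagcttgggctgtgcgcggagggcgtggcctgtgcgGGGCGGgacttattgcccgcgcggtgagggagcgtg
PSMA8, chr18:26133619-26133868, strand +: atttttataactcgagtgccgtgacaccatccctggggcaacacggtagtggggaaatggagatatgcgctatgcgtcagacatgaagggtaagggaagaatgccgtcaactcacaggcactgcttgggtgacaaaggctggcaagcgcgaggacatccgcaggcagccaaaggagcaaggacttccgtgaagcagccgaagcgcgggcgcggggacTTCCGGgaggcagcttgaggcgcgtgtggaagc

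Among 55 promoters of the 44 genes, TGACNNNGC was found in 23.6%, against 11.2% of 22132 promoters of all genes. CCGGAA was found in 36.4% of the proteasome promoters and 17.9% of all promoters. The GC box was found in 63.6% against 53.7%, CCAAT in 41.8% against 32.7% and CACGTG in 9.09% against 7.37%. The median GC content was 62% in both sets, and the median number of CpG per 100 bases was 7.6 in the proteasome promoters and 6.4 in all promoters. These matches are letters in a window and do not show that a factor binds there.

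Most proteasome genes carried called regions of all 3 proteins. The median proteasome gene was occupied in 16 of 20 lists, against 14 for all protein-coding genes, although proteasome genes are shorter (median 13.6 kb, against 24.2 kb). There were 7 in all 20 lists (14%, against 8.79% of all genes), 24 in 15 to 19 lists, 10 in 10 to 14 lists, 5 in 1 to 9 lists and 4 in no list (10.2% of all genes were in no list). The share of proteasome genes occupied lay above the share of all genes in 19 of 20 libraries, by up to 16.6 percentage points, the exception being OGG1 siGl3 NT replicate 1 with a difference of -1.29 points. With each antibody's lists trimmed to equal covered bases, it lay above in 14 of 20.

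**Figure D1:**
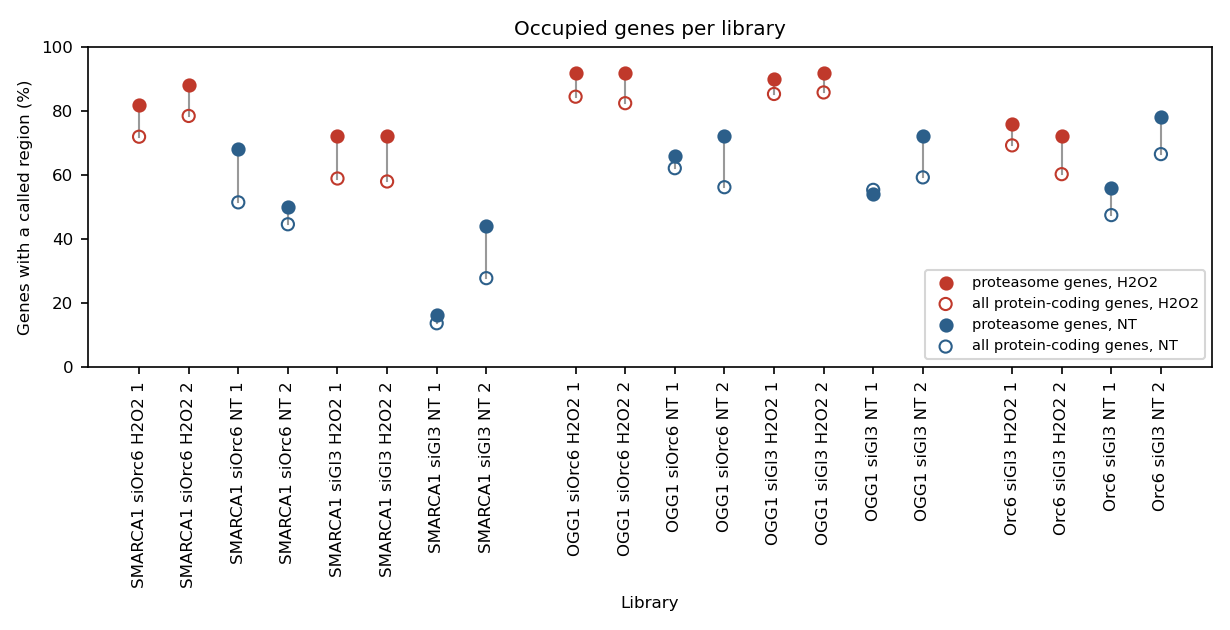
Share of genes with a called region in each of the 20 libraries (vertical axis, %), for the 50 proteasome genes (filled) and all 19974 protein-coding genes (open), joined by a line, with H2O2 libraries in red and NT libraries in blue. The filled point lies above the open one in 19 of 20 libraries.

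Most of this occupancy included the promoter. An annotated promoter of a proteasome gene was in a called region in a median of 15.5 lists, against 11 for all genes with a promoter in the table. Of the 44 genes, 13.6% had a promoter in all 20 lists, against 4.02% of all such genes. Over 620 pairs of an occupied gene and a library, the signal maximum of the gene's strongest region lay within 1 kb of an annotated start in 71.1%, and a promoter was inside a region in 96.1%. For SMARCA1 the maximum lay that close in 89.5% and 92.1% of the genes in siOrc6 H2O2 libraries, 86.7% and 86.4% in siOrc6 NT, 67.7% and 77.4% in siGl3 H2O2, and 85.7% and 95.2% in siGl3 NT. For OGG1 it did so in 60% and 62.5% in siOrc6 H2O2, 60% and 64.5% in siOrc6 NT, 48.7% and 65% in siGl3 H2O2, and 70.8% and 57.6% in siGl3 NT. In all 8 pairs of the same group and replicate, the share was higher for SMARCA1 than for OGG1. The strongest OGG1 regions at these genes were also wider, and the part of width in this difference was not tested.

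**Figure D2:**
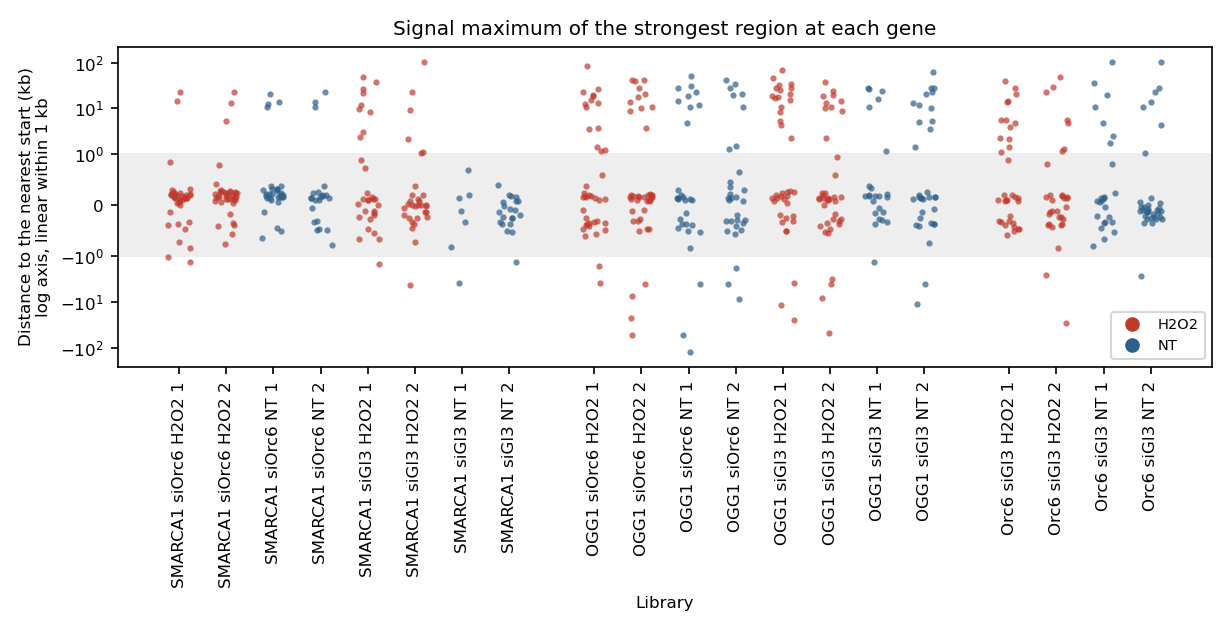
Position of the signal maximum of the strongest region at each occupied proteasome gene, relative to the nearest annotated start (vertical axis, kb, logarithmic and linear within 1 kb, positive downstream), by library. Grey shading marks 1 kb on either side of the start, which holds 71.1% of the 620 points.

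The median width of the strongest region differed by treatment, in opposite directions for SMARCA1 and OGG1. Each median is over the genes occupied in that library, so the libraries are not compared at the same genes. For SMARCA1 these were 36 to 44 genes in H2O2 and 8 to 34 in NT libraries. For OGG1 they were 45 to 46 and 27 to 36. For SMARCA1 the median width over occupied proteasome genes was 2392 and 2473 bp in siOrc6 H2O2, against 5940 and 4827 bp in siOrc6 NT. It was 1584 and 1985 bp in siGl3 H2O2, against 3794 and 2788 bp in siGl3 NT. For OGG1 it was 15258 and 15738 bp in siOrc6 H2O2, against 8210 and 9096 bp in siOrc6 NT, and 18244 and 17005 bp in siGl3 H2O2, against 7439 and 9865 bp in siGl3 NT. Every H2O2 library lay below every NT library for SMARCA1 and above every NT library for OGG1. For Orc6 it was 8510 and 12310 bp in H2O2, against 6096 and 5302 bp in NT. The share of the proteasome gene windows under a region averaged 54.6% in the 4 OGG1 H2O2 libraries, against 15.8% in the 4 NT libraries; over all genes these were 33.0% and 11.0%. The width over a whole list moved the same way for SMARCA1, and the opposite way for OGG1, where the median region of H2O2 lists (3224 to 4178 bp) was narrower than that of NT lists (6138 to 7494 bp).

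The 7 genes occupied in all 20 lists included the ATPase subunits PSMC3, PSMC5 and PSMC6 and the non-ATPase subunits PSMD3 and PSMD11. The others were the alpha ring subunit PSMA5 and PSMG2, a chaperone that pairs with PSMG1 to build the alpha ring. The strongest regions of these 7 genes were ranked within each list by total signal, as a percentile. PSMG2 (chr18:12658738-12725740) ranked between 69.8 and 99.9, with means of 84.6 for SMARCA1, 95.5 for OGG1 and 99.2 for Orc6. PSMC5 (chr17:63827431-63832019) ranked between 34.8 and 99.9, with means of 80.5, 97.9 and 94.3 for the same antibodies. The lowest rank of PSMC5 and of PSMC3 (6.69) fell in SMARCA1 siGl3 NT replicate 1, the shortest list. PSMC3 (chr11:47418775-47426439) was covered over its whole window of 9665 bp in all 8 OGG1 libraries and both Orc6 H2O2 libraries, against 5664 and 4479 bp in the Orc6 NT libraries. PSMC5 was covered over its whole window of 6589 bp in all 8 OGG1 libraries.

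PSMD3 (chr17:39980807-39997959) and PSMA5 (chr1:109399042-109426448) showed a wider OGG1 cover after H2O2. PSMA5 had 29407 and 26861 bp covered in OGG1 siOrc6 H2O2 and 29407 and 29407 bp in siGl3 H2O2, against 4642 and 22597 bp in siOrc6 NT and 4821 and 1793 bp in siGl3 NT. PSMD3 had 12816, 15526, 15918 and 15714 bp in those H2O2 libraries, against 5824, 4590, 2119 and 8584 bp in the NT libraries. For both genes the lowest H2O2 library lay above the highest NT library, as for 25 of the 50 genes (50%, against 39.9% of all genes). In SMARCA1 libraries the cover of PSMA5 stayed between 2795 and 5104 bp. PSMD11 had the lowest mean percentile of the 7 genes, 59.7. At PSMC6 the maximum lay a median of 22825 bp downstream of the start, which places it beyond the gene end of this gene of 21391 bp. Of the 7 genes, 2 have another protein-coding gene within 1 kb, as do 25 of the 50, and a region there cannot be given to one gene.

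**Figure D3:**
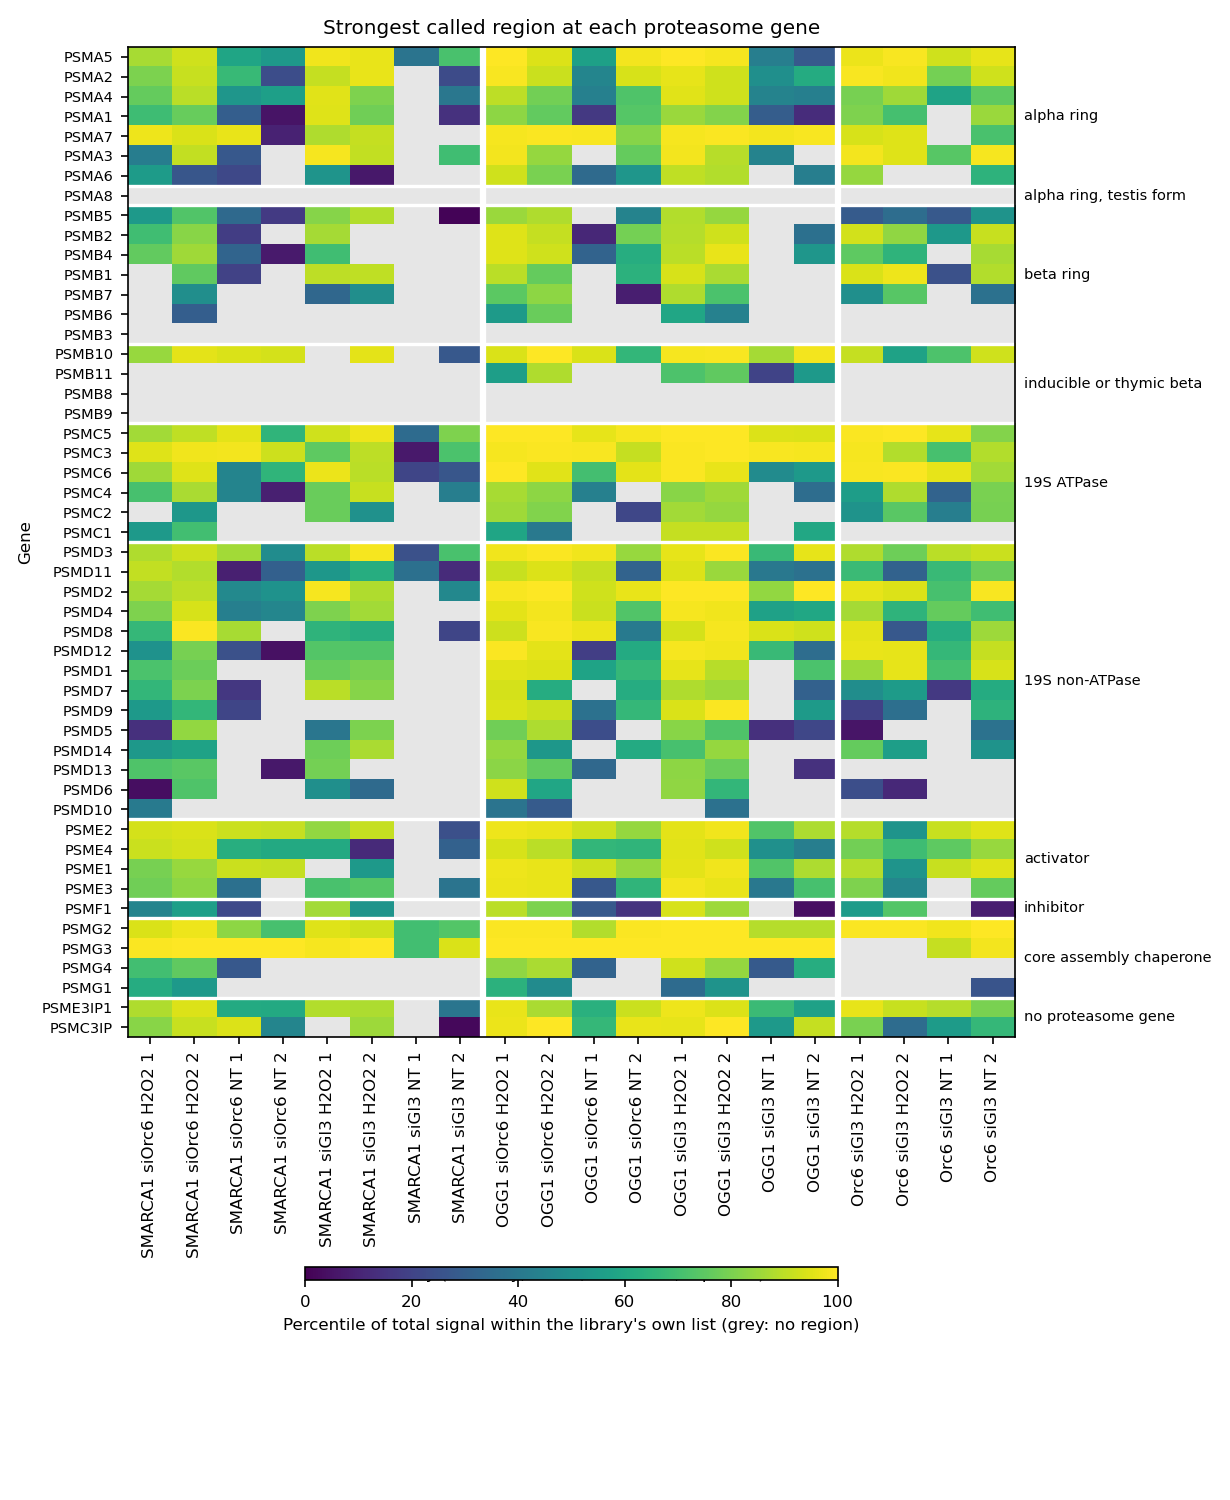
Percentile of total signal, within its library's own list, of the strongest called region at each of the 50 genes (rows, grouped by role) in each of the 20 libraries (columns). Grey means no region: PSMA8, PSMB3, PSMB8 and PSMB9 are grey throughout, and 7 genes have a region in every column.

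A further 6 genes were in 19 lists: PSMA2, PSMA4, PSMD2, PSME2, PSME4 and PSME3IP1. All 6 lacked a region in SMARCA1 siGl3 NT replicate 1, the shortest list, and in no other. The 7 genes in 18 lists were PSMA1, PSMB10, PSMC3IP, PSMD4, PSMD8, PSMD12 and PSMG3. PSMA7, PSMC4, PSME1 and PSME3 were in 17 lists, PSMA3 and PSMB5 in 16, and PSMB2, PSMB4, PSMD1, PSMD7 and PSMF1 in 15. PSMA6 was in 14 lists, PSMB1, PSMD5 and PSMD9 in 13, PSMC2 and PSMD14 in 12, PSMB7 in 11, and PSMD6, PSMD13 and PSMG4 in 10. Fewest were PSMC1 and PSMG1 in 7 lists, PSMB11 in 6, PSMB6 in 5 and PSMD10 in 4. PSMD10, a chaperone of the regulatory particle on the X chromosome, was reached in H2O2 libraries only: by SMARCA1 in siOrc6 replicate 1 (1715 bp), and by OGG1 in both siOrc6 libraries (1756 and 1758 bp) and siGl3 replicate 2 (1732 bp). PSMC1, an ATPase subunit, had 5545 and 6592 bp under OGG1 regions in siOrc6 H2O2 and 7612 and 11818 bp in siGl3 H2O2, against 0 and 0 bp in siOrc6 NT and 0 and 1093 bp in siGl3 NT. Its SMARCA1 regions were found in the siOrc6 H2O2 libraries alone, with 1362 and 1954 bp. PSME1 and PSME2, which encode the partner subunits of an activator, shared 1 region in 15 lists. The maximum of that shared signal lay beside PSME2: relative to the start of PSME1 its median position was 10766 bp, beyond that gene of 2769 bp.

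Roles differed in how often they were occupied. The 7 alpha ring genes were in a median of 18 lists (14 to 20), the 6 ATPase genes in 18.5 (7 to 20), the 4 activators in 18 (17 to 19) and the 14 PSMD genes in 15 (4 to 20). The 7 constitutive beta ring genes were in 13 (0 to 16), and the 4 core assembly chaperones in 14 (7 to 20). The alpha ring genes were occupied more often on average than the beta ring genes with each antibody and treatment. In OGG1 H2O2 libraries 100% of alpha ring genes and 85.7% of beta ring genes were occupied, and in OGG1 NT libraries 89.3% and 32.1%. In SMARCA1 H2O2 libraries they were 100% and 60.7%, and in SMARCA1 NT libraries 64.3% and 25%. In Orc6 H2O2 libraries they were 92.9% and 71.4%, and in Orc6 NT libraries 78.6% and 57.1%. The beta ring genes include PSMB3, which no list reached and which was the only one of them without a region in OGG1 H2O2 libraries. The testis form PSMA8, also reached by no list, was not counted among the alpha ring genes. Over all genes the shares were 84.5% in OGG1 H2O2 and 58.2% in OGG1 NT libraries, 66.8% and 34.3% for SMARCA1, and 64.7% and 56.9% for Orc6. The alpha ring genes are 6662 to 138787 bp long and the beta ring genes 2332 to 61978 bp. The part of gene length in these differences was not tested. These are descriptions of small sets of genes, with no test.

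**Figure D4:**
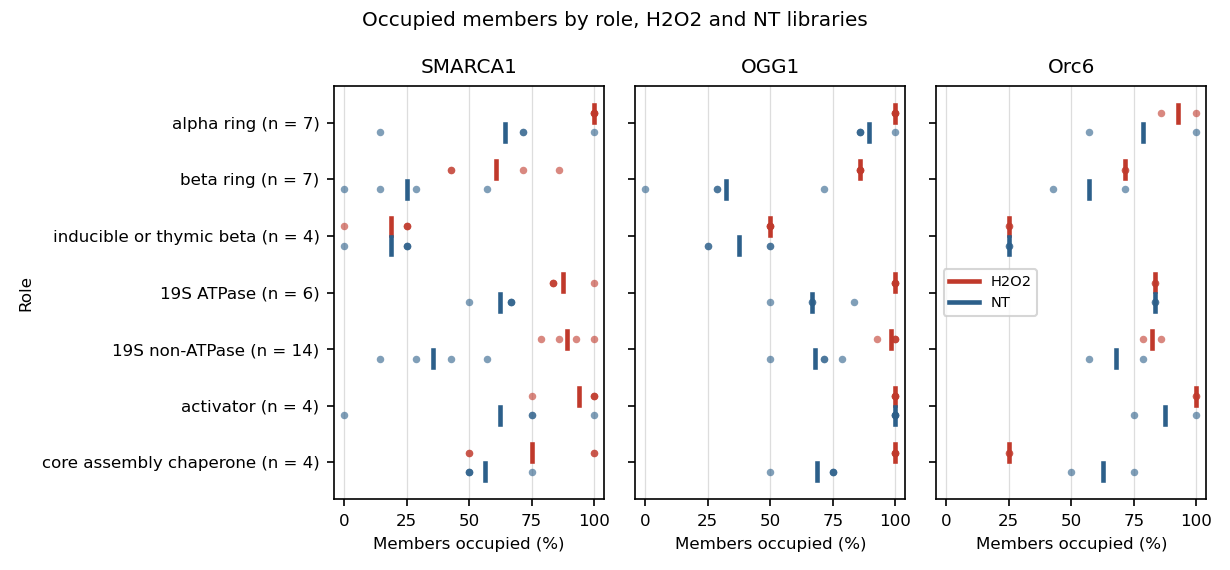
Share of genes occupied in each role (horizontal axis, %), by antibody, with one point per library and a bar at the mean, H2O2 in red above NT in blue. All 7 alpha ring genes were occupied in every SMARCA1 and OGG1 H2O2 library, and the beta ring averaged 25% in SMARCA1 NT and 32.1% in OGG1 NT libraries.

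The forms bound to particular tissues ranged from 0 to 18 lists. PSMA8, the testis form of an alpha subunit, and PSMB8 and PSMB9, which replace active-site subunits after interferon, had no region in any list, nor did PSMB3, a constitutive beta subunit. PSMB8 and PSMB9 lie inside a stretch of 4.97 Mb (chr6:28510432-33480034) in which none of the 20 lists holds a region on the chromosome 6 sequence. PSMB3 lies in such a stretch of 375 kb (chr17:38465901-38841179) and PSMA8 in one of 132 kb; the median gap between regions pooled over all lists is 2.93 kb. The lists also hold 72 regions on alternate sequences of chromosome 6, 91 on those of chromosome 17 and 8 on those of chromosome 18, which were not assigned to genes. The part of such alternate sequences in the empty stretches was not tested, so a count of 0 lists does not show that these 4 genes were unbound. PSMB10, another interferon-inducible subunit, was in 18 lists with a mean percentile of 85.7. PSMB11, the thymic subunit, was in 6 lists, all of OGG1: 1796 and 3849 bp were covered in siOrc6 H2O2 and 3728 and 3849 bp in siGl3 H2O2, against 0 and 0 bp in siOrc6 NT and 3849 and 3849 bp in siGl3 NT.

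The question of the H2O2 comparison was where SMARCA1, OGG1 and Orc6 sit on chromatin after oxidative damage. More proteasome genes had a called SMARCA1 region after H2O2. Occupied were 41 and 44 of the 50 in siOrc6 H2O2 and 36 and 36 in siGl3 H2O2, against 34 and 25 in siOrc6 NT and 8 and 22 in siGl3 NT. Every H2O2 library lay above every NT library. The mean was 78.5% in H2O2 and 44.5% in NT, and for all genes 66.8% and 34.3%. The difference of 34 points at the proteasome genes was 8 points with lists of equal length and 21.5 points with lists of equal covered bases. Of the 50 genes, 35 were occupied in more H2O2 than NT libraries, which is 70%, against 68.7% of all genes, and none was occupied in more NT libraries (0.956% of all genes) or in all NT and no H2O2 libraries (0.02%). The share of genes that gained SMARCA1 libraries was thus close to that of all genes.

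There were 4 genes, all encoding parts of the regulatory particle or its assembly, with SMARCA1 in all 4 H2O2 and none of the 4 NT libraries, 8% of the 50 against 5.02% of all genes. PSMD14, the enzyme that cuts ubiquitin from substrates, had 1998 and 3623 bp covered in siOrc6 H2O2 and 5541 and 1573 bp in siGl3 H2O2, against 0 bp in each NT library. PSMD1, a large scaffold, had 1324, 1499, 13657 and 7211 bp in the same H2O2 libraries, against 0 bp in NT. PSMD5, an assembly chaperone of the ATPase base, had 900, 2785, 771 and 1172 bp, against 0 bp in NT. PSMD6, a lid subunit (chr3:64010551-64024007), had 860, 2379, 1244 and 1472 bp, against 0 bp in NT. Fisher's exact test, two-sided and with 4 libraries in each arm, gave p = 0.0286 for each, the smallest this design can give. With Benjamini-Hochberg adjustment over the 2064 genes occupied in exactly 4 of 8 libraries, the adjusted p was 0.0586. No gene passed, and 1007 genes had an unadjusted p below 0.05. With lists of equal length, 6992 regions each, none of the 4 genes kept the pattern: PSMD14 differed by 25 points, and PSMD1, PSMD5 and PSMD6 by 0.

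OGG1 reached nearly all the proteasome genes that any list reached after H2O2. Occupied were 46 and 46 of the 50 in siOrc6 H2O2 and 45 and 46 in siGl3 H2O2, against 33 and 36 in siOrc6 NT and 27 and 36 in siGl3 NT. The mean was 91.5% in H2O2 and 66% in NT, and for all genes 84.5% and 58.2%. The direction turned with the trimming of the lists: the difference of 25.5 points at the proteasome genes was 11 points with lists of equal length and -10.5 points with lists of equal covered bases. Of the 50 genes, 23 were occupied in more H2O2 than NT libraries (46%, against 47.3% of all genes) and none in more NT libraries (0.145%). PSMB6, PSMG1 and PSMD6 had OGG1 in all 4 H2O2 and no NT libraries and passed the test (adjusted p = 0.0323, Fisher's exact test as above). They are 6% of the 50, against 7.84% of all genes.

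PSMB6, an active-site subunit of the core (chr17:4796164-4798495), had 871 and 4247 bp covered in OGG1 siOrc6 H2O2 and 4067 and 2699 bp in siGl3 H2O2, against 0 bp in each NT library. PSMG1, the partner of PSMG2 (chr21:39174769-39183514), had 4200, 2792, 1937 and 2715 bp in the same H2O2 libraries, against 0 bp in NT. PSMD6 had 14005, 6530, 13543 and 6950 bp, against 0 bp in NT. For all 3 genes every H2O2 library had a region and no NT library did. At PSMB6, OGG1 regions lay 3.74 to 83.7 kb away in NT libraries. The call depends on the adjustment and on the length of the lists: adjusted over all 19974 genes the adjusted p was 0.364, with lists of equal length no gene passed, and without any 1 of the 4 H2O2 libraries it was 0.0599 to 0.0651. With an H2O2 library left out, all 3 genes kept the pattern, but the set of genes adjusted over was not the same. Paired by replicate number (the replicate block), the exact sign test over 4 pairs allows no p below 0.125, and no gene passed.

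In bases covered, 25 of the 50 genes had more under OGG1 regions in every H2O2 library than in any NT library, which is 50%, against 39.9% of all genes. By role they were 5 of the 7 alpha ring genes, 4 of the 7 beta ring genes, 0 of the 4 inducible or thymic beta genes, 3 of the 6 ATPase genes, 6 of the 14 PSMD genes, 2 of the 4 activators, 3 of the 4 core assembly chaperones, the inhibitor gene PSMF1 and PSME3IP1. None had more in every NT library (0.01% of all genes). For SMARCA1 this held for 4 of the 50 genes in H2O2 (8%, against 7% of all genes), the 4 named above, and for none in NT (0.245% of all genes). By the exact permutation test of the covered share, adjusted over the genes reached, no gene passed for OGG1 (smallest adjusted p = 0.0637) or for SMARCA1 (0.329).

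Orc6 was at 38 and 36 of the 50 genes in H2O2, against 28 and 39 in NT, so the groups overlapped. The mean was 74% in H2O2 and 67% in NT, and for all genes 64.7% and 56.9%. The difference of 7 points at the proteasome genes was -1 point with lists of equal length, -22 points with equal covered bases and -4 points without NT replicate 1. With 2 libraries in each arm the smallest p that Fisher's exact test allows is 0.333, so it was not used. Of the 50 genes, 9 were occupied in more H2O2 libraries (20% of all genes) and 2 in more NT libraries (6.1% of all genes). PSMD6 had Orc6 in both H2O2 libraries, with 3528 and 5170 bp covered, and in neither NT library, as did 1.95% of all genes. In the opposite direction PSMG3, a core assembly chaperone (chr7:1567332-1570032), had 0 and 0 bp in H2O2, against 2676 and 4701 bp in NT, as did 0.31% of all genes. In bases covered, 17 of the 50 genes had more in both H2O2 libraries than in either NT library (34%, against 30.4% of all genes). The reverse held for PSME2 and PSMG3 (4%, against 1.59%).

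PSMG3 had mean percentiles of 95.3 for SMARCA1, 99.96 for OGG1 and, in the NT lists alone, 94.7 for Orc6. Its OGG1 region was 194198 and 408236 bp wide in siOrc6 H2O2 and 277964 and 239085 bp in siGl3 H2O2, against 409138 and 74784 bp in siOrc6 NT and 278149 and 247015 bp in siGl3 NT. These widths of H2O2 and NT libraries overlapped. In the same H2O2-treated siGl3 cells, the nearest Orc6 regions were 15 and 17.6 kb from the gene.

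Over the 3 antibodies, PSMD6 carried a region in each of the 10 H2O2 libraries and in 0 of the 10 NT libraries, as did 6 of the 19974 genes (0.03%). It is described across antibodies because of this pattern, which was seen before it was counted, so no test is given. Its nearest regions in the NT libraries lay 18.7 to 160 kb away. Its rank in the H2O2 lists ran from 3.65, in SMARCA1 siOrc6 H2O2 replicate 1, to 92.6, in OGG1 siOrc6 H2O2 replicate 1. In 7 of its 10 lists the maximum lay within 1 kb of the start, and its promoter was inside a region in 8. With lists of equal length the difference was 25 points for OGG1 and 0 for SMARCA1 and for Orc6.

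**Figure D5:**
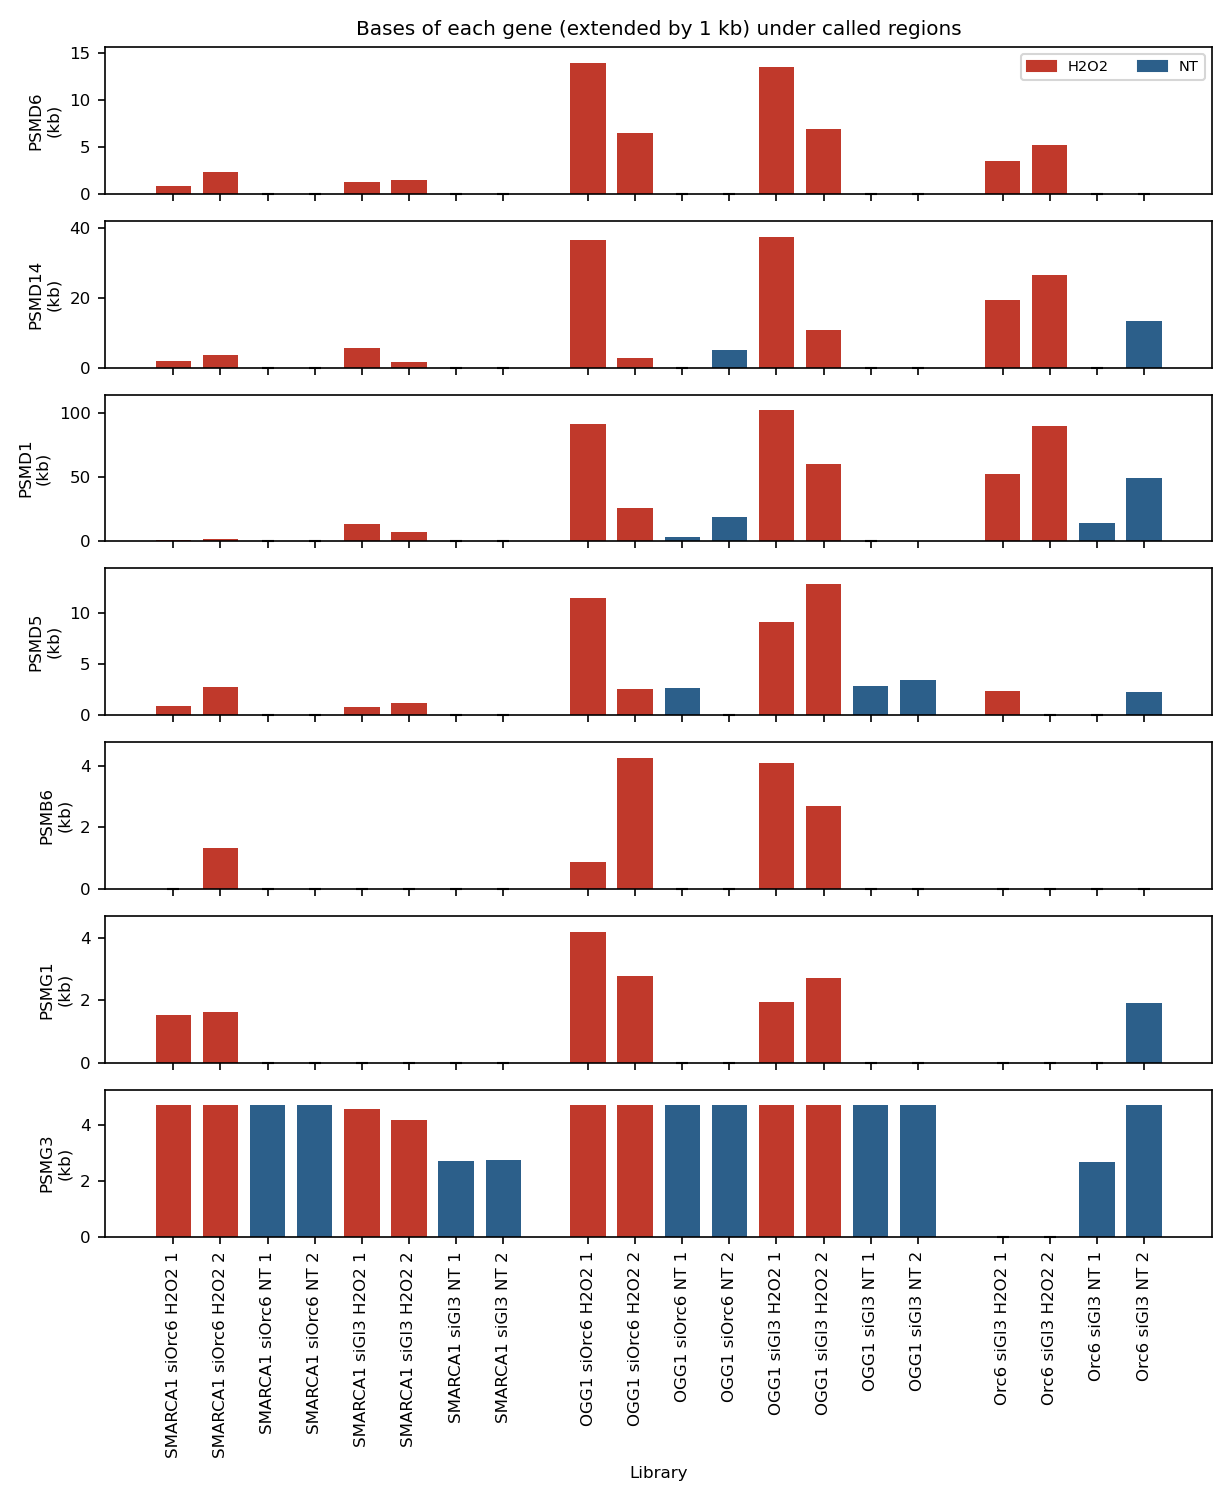
Bases of each gene, extended by 1 kb on each side, under called regions (vertical axes, kb, each starting at 0) in the 20 libraries, H2O2 in red and NT in blue, for the 7 genes with a region in all libraries of one treatment and none of the other for at least 1 antibody. A dash marks 0: PSMD6 has bars in all 10 H2O2 libraries and dashes in all 10 NT libraries, and PSMG3 has dashes only in the 2 Orc6 H2O2 libraries.

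The siOrc6 comparison asked whether Orc6 alters where SMARCA1 and OGG1 sit. SMARCA1 was at a mean of 72% of the proteasome genes in siOrc6 and 51% in siGl3 libraries, and at 61.6% and 39.5% of all genes. The difference of 21 points at the proteasome genes was 8 points with lists of equal length, -10.5 points with equal covered bases and 9.33 points without siGl3 NT replicate 1. The groups overlapped: 41, 44, 34 and 25 genes in siOrc6, against 36, 36, 8 and 22 in siGl3. Of the 50, 27 were occupied in more siOrc6 libraries (54%, against 57.3% of all genes) and 2, PSMC2 and PSMB7, in more siGl3 libraries (7.61% of all genes). No proteasome gene had SMARCA1 in all 4 libraries of one siRNA and none of the other (2.26% of all genes did with siOrc6, and 0.0751% with siGl3). No gene passed Fisher's exact test after adjustment, and 467 genes had an unadjusted p below 0.05.

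The widest differences were 3 libraries, at PSMB4, PSME1, PSMD9 and PSMG4. PSMB4, a beta ring subunit, had 1758 and 2226 bp covered in siOrc6 H2O2 and 4363 and 2279 bp in siOrc6 NT, against 1277 and 0 bp in siGl3 H2O2 and 0 and 0 bp in siGl3 NT. PSME1 had 2231, 3397, 4769 and 3020 bp in the siOrc6 libraries, against 0, 1198, 0 and 0 bp in siGl3. In both genes every siOrc6 library lay above every siGl3 library. Over all antibodies, PSME1 shared 1 region with PSME2 in 15 lists, so their covers are not separate observations. PSMB4, PSME1, PSMD9 and PSMG4 each have another protein-coding gene within 1 kb. PSMD9, an assembly chaperone of the base, had 1156, 5818, 2590 and 0 bp in siOrc6, and PSMG4, the partner of PSMG3, had 1577, 2366, 4823 and 0 bp, against 0 bp in all 4 siGl3 libraries for both. In bases covered, 6 of the 50 genes had more in every siOrc6 than in any siGl3 library (12%, against 17.8% of all genes): PSMB4, PSMB10, PSME1, PSME2, PSMG3 and PSMC3IP. None had more in every siGl3 library (0.706% of all genes).

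Between the siRNAs, OGG1 was at a mean of 80.5% of the genes in siOrc6 and 77% in siGl3 libraries, and at 71.3% and 71.4% of all genes. The difference of 3.5 points at the proteasome genes was -4.17 points without siGl3 NT replicate 1 and -0.333 points without either siOrc6 H2O2 library. Of the 50, 12 were occupied in more siOrc6 libraries (24%, against 16% of all genes) and 4 in more siGl3 libraries (8%, against 17%). Each of the 12 differed by 1 library. The widest difference was that of PSMB11, occupied in 2 siOrc6 and 4 siGl3 libraries. In bases covered, none of the 50 lay higher in every siOrc6 library (0.00501% of all genes) or in every siGl3 library (0.19%). None of the 19974 genes was all-or-none in either direction, so none had an unadjusted p below 0.05 in Fisher's exact test.

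Many proteasome genes carried a region of each of the 3 proteins. Whether these regions overlap each other within a gene was not tested. In siGl3 H2O2 cells 30 of the 50 genes were occupied in both libraries of SMARCA1, OGG1 and Orc6 (60%, against 44.8% of all genes). In siGl3 NT cells 8 were (16%, against 9.77%): PSMA5, PSMC3, PSMC5, PSMC6, PSMD3, PSMD11, PSMG2 and PSMG3. SMARCA1 siGl3 NT replicate 1, the shortest list, reached no more than these 8 genes, so this count could not be higher. In the same cells OGG1 and Orc6 shared 20 genes in both libraries of each (40%, against 36.5%). In siOrc6 H2O2 cells SMARCA1 and OGG1 shared 40 genes (80%, against 68.7%), and in siOrc6 NT cells 22 (44%, against 36.3%). In H2O2 cells, 0 of the 50 genes were occupied in both SMARCA1 libraries without being occupied in both libraries of another antibody. Over all genes this share was 1.70% in siOrc6 and 0.0701% in siGl3 cells, so 0 of 50 is near the background.

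Other genes of the proteasome pathway were read from a list of 29, all of which were found. Their median was 16 lists, and 2 were in all 20: NFE2L1, the regulator of proteasome genes, and UFD1, a cofactor that helps VCP extract ubiquitinated proteins. For OGG1, 6 of the 29 were in all 4 H2O2 and no NT libraries and passed the test (7.84% of all genes did): POMP, the core maturation factor; UBB, a ubiquitin gene; TXNL1, a thioredoxin that binds the regulatory particle; SEM1, a small lid subunit; UBE3C, a ubiquitin ligase of the proteasome; and UBQLN2, a shuttle for substrates. For SMARCA1, TXNL1 alone had that pattern, 1 of the 29 against 5.02% of all genes, and did not pass. For Orc6, USP14, a deubiquitinase of the regulatory particle, was the 1 of the 29 in both H2O2 and neither NT library, as were 1.95% of all genes. None of the 29 was all-or-none in the opposite direction or between siRNAs.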

How the data were processed

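Per the labels, CUT&RUN libraries of U2OS cells were sequenced on an Illumina instrument. Per the submitters' processing notes, the build was hg38 and the tools included SEACR 1.1, Bowtie2, SAMtools, deepTools, bedtools, DESeq2 and DiffBind, with no roles stated. The authors deposited 1 list of called regions per library, with the total and the maximum signal of each region. How that deposited signal was scaled is not stated, so it served only to rank regions within a list. Depth per library is unknown, and list length stands in its place.

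Gene spans, symbols and promoters came from RefSeq tables (GRCh38.p14), whose gene table has no strand, exons or introns. Occupancy needed 1 bp of overlap with the gene extended by 1 kb. Groups, replicate numbers and batches came from the labels. The batch equals the replicate number, so the numbers pair the samples. With 4 libraries against 4, genes were tested by Fisher's exact test with Benjamini-Hochberg adjustment at 0.05 over the genes occupied in exactly 4 of 8 libraries, since only these can pass. The blocked fit was an exact sign test over 4 pairs. Members, gene lists and tests were chosen with earlier results of these data known. Genes were named by a rule: all-or-none members, the widest differences where there were none, members in all or the fewest lists, and the tissue forms. Counts of genes by bases covered, and the account of PSMG3 and of PSMD6 across antibodies, were added after seeing values. The gene test was checked on simulated data. Alternatives covered the window, the overlap, list length, covered bases, the adjustment, the block and each library left out. Of 34 samples, 14 had no list used here, and 1 deposited list of the whole series was not used. No 2 lists were identical. The tools were scipy 1.17.1, numpy 2.4.6, matplotlib 3.10.9 and pandas 2.3.3 under Python 3.11.15.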

Additional observations from a re-analysis of the deposited data

Results flagged for a closer look

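The authors' deposited tables of SMARCA1 siOrc6 windows named up and ns entered no comparison above, and the labels do not state which groups they set against each other. A window named up lay at 18 of the 50 proteasome genes in the NT table (36%, against 34% of all genes) and at 23 in the H2O2 table (46%, against 50.1% of all genes). A window named ns lay at 7 in the NT table (14%, against 10.5%) and at 26 in the H2O2 table (52%, against 44.5%). Both counts were singled out because these tables lie outside the main measurement. PSMG3, PSMD9 and PSMG4 are among the genes with an H2O2 window named up.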

How the results depend on the processing

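The direction of the occupancy differences held with genes not extended, with gene ends only, at 200 bp of overlap, at annotated promoters of 44 genes and without the 4 genes no list reached. Differences in the share of proteasome genes occupied, in percentage points, depended on list length. For SMARCA1 with H2O2 minus NT the difference was 34 points, 52 with lists cut at their median total signal, 8 with equal list lengths, 21.5 with equal covered bases and 24.5 to 41.8 with 1 library left out. For OGG1 it was 25.5, 44, 11, -10.5 and 21.5 to 27.5 under the same settings. For SMARCA1 with siOrc6 minus siGl3 it was 21, with 8 at equal lengths, -10.5 at equal bases and 9.33 to 28.3 with 1 library left out. For OGG1 with siOrc6 it was 3.5, and -4.17 to 8.50 with 1 library left out, negative without siGl3 NT replicate 1 or either siOrc6 H2O2 library. For Orc6 it was 7, -1 at equal lengths, -22 at equal bases and -4 to 18 with 1 library left out, negative without NT replicate 1. Of the 19974 genes, those called for OGG1 with H2O2 numbered 1566, with 3 of the 50 proteasome genes among them. In the lists cut at the median they numbered 2627, with 8 of the 50. None was called with equal lengths, equal bases, adjustment over all genes, or the covered share. The called genes numbered 0 to 2700 with 1 library left out, 0 without any 1 of the 4 H2O2 libraries and 2700 without siOrc6 NT replicate 2. The set of genes adjusted over changes with each library left out. For SMARCA1 with H2O2, 0 genes became 1527 of 19974 in the lists cut at the median, 1525 higher and 2 lower in H2O2. Of the 50 proteasome genes, 10 were among them (adjusted p = 0.0485, Fisher's exact test). For SMARCA1 with siOrc6, 0 became 1029 of 19974 at equal lengths, 962 higher and 67 lower in siOrc6. Of the 50 proteasome genes, PSME4 was the only 1 among them. For Orc6, 452 all-or-none genes became 681 at equal lengths, 1459 at equal bases and 1135 to 2892 with 1 library left out. Leaving out a library loosens the all-or-none rule, so that last count can only rise. The cause of the other shifts was not tested. With the replicate block, which pairs same-numbered libraries, 0 genes were called for OGG1 with H2O2. Its exact sign test over 4 pairs allows no p below 0.125, so it could call no gene in any comparison and decides nothing about the calls.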
